A study of Mus musculus with 6 samples.

Results

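The immediate early stress response genes examined here were Fos, Fosb, Jun, Junb, Egr1, Atf3, Ier2, Ier3, Dusp1 and Zfp36, taken from the deposited expression table by symbol. All 10 were found, out of 35275 genes in the table, and 9 of them reached the mean of 1 FPKM (reads scaled to gene length and library size) over the 6 libraries that was required for testing. Fosb, at a mean of 0.929 FPKM, did not. The libraries were made from total RNA of whole tongue, with 3 Aim2 KO and 3 wild type libraries, numbered 1 to 3 in each genotype. The Aim2 KO mice lacked a working Aim2 gene. Every mouse, wild type included, had been given the carcinogen 4NQO (4-nitroquinoline 1-oxide), which damages DNA, at 100 µg/ml in its drinking water over 20 weeks, so the study holds no untreated tongue. The labels name no strain, age or sex, do not say which exons the knockout lacks, and do not say whether each library is a separate mouse. The p-values therefore describe the spread among these libraries, which may be technical. Aim2, which encodes a sensor of cytosolic DNA, was listed at 0.0469, 0.0564 and 0.160 FPKM in Aim2 KO replicates 1 to 3 and at 0.201, 0.363 and 0.417 FPKM in wild type replicates 1 to 3, which rest on 3 to 10 and 14 to 30 reads a library. Its groups did not overlap (two-sided exact permutation p = 0.1, the lowest value that 3 against 3 allows).

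Immediate early genes are transcribed within minutes of a stimulus from transcription factors already present in the cell, such as SRF and CREB acting downstream of MAP kinases, and their mRNAs are short-lived. Their products include the FOS and JUN proteins that pair to form the AP-1 transcription factor, the zinc finger factor EGR1, and proteins that end the response, among them the phosphatase DUSP1 and the mRNA decay factor ZFP36. In stratified epithelium such as that of the tongue, AP-1 factors take part in proliferation and differentiation of keratinocytes and in the response to wounding.

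The 10 genes tended to go up and down together from library to library. Aim2 KO replicate 1 had all 10 genes above their own mean over the 6 libraries and was the highest library for 6 of them, whereas among all 12144 tested genes that library was the highest for 21.9%. Wild type replicate 1 also had all 10 above their mean. Wild type replicate 2 had 7 above and wild type replicate 3 had 3 above. Aim2 KO replicate 2 had 1 above and Aim2 KO replicate 3 had 0 above. Averaged over the 10 genes on the log2(FPKM + 1) scale, with each gene centred on its own mean, the level was 0.39, -0.27 and -0.30 in Aim2 KO replicates 1 to 3 and 0.22, 0.14 and -0.18 in wild type replicates 1 to 3. The summed level ran from 305 FPKM in Aim2 KO replicate 3 to 555 FPKM in Aim2 KO replicate 1, and the wild type sums of 361 to 457 FPKM lay inside that range. The genotype means of the centred level were -0.06 ± 0.39 in Aim2 KO and 0.06 ± 0.21 in wild type (SD, n = 3 per group), a difference smaller than either spread.

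**Figure D1:**
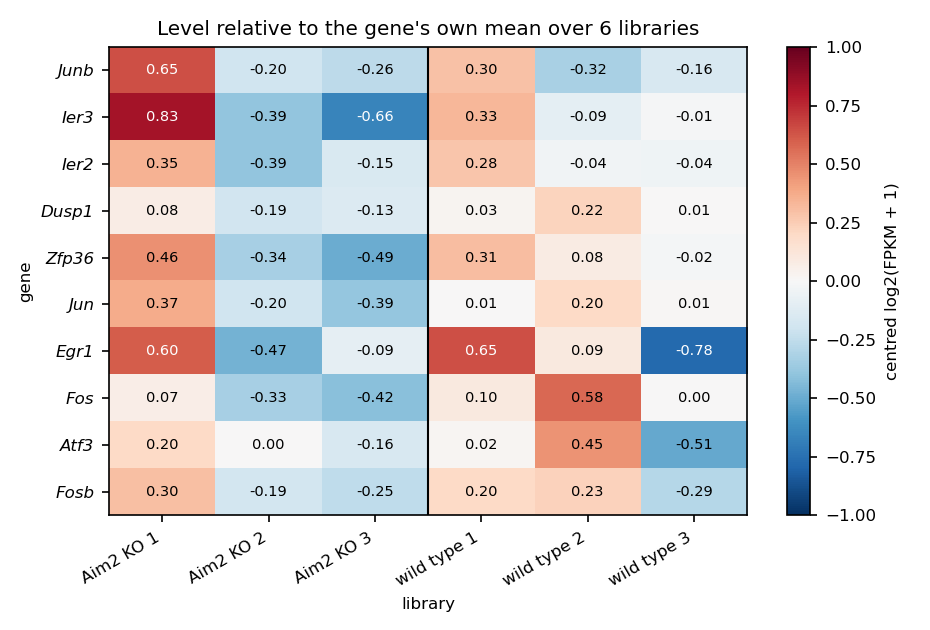
Level of each of the 10 genes (rows, most abundant at the top) in each library (columns, Aim2 KO left of the line), as log2(FPKM + 1) minus the gene's mean over the 6 libraries. The columns of Aim2 KO replicate 1 and wild type replicate 1 are positive in all 10 rows, and that of Aim2 KO replicate 3 is positive in none (0 of 10).

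All 45 pairs of the 10 genes had a positive Pearson r over the 6 libraries, with a median of 0.70, and 12 pairs exceeded 0.8. These coefficients describe 6 points that share their libraries. The same counts were not made over pairs of other genes, so they do not set the 10 genes apart. Among 7737 other genes, 132 had an r above 0.9 with the mean of the 9 tested genes. The closest pairs were Ier3 with Zfp36 and Fos with Dusp1 (r = 0.965 each). Jun was closest to Zfp36 (r = 0.901), Junb to Ier3 (r = 0.899), Ier2 to Zfp36 (r = 0.893), Fosb and Egr1 to each other (r = 0.865) and Atf3 to Fosb (r = 0.81). The least alike pair was Fos and Junb (r = 0.0877), followed by Junb and Atf3 (r = 0.18) and Junb and Dusp1 (r = 0.199). Fos, Atf3 and Dusp1 had their highest value in wild type replicate 2, where Junb had its lowest.

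Promoter windows are shown for the members that hold the core of the cAMP response element, the DNA element bound by CREB and ATF proteins. Whether this motif has a part in the shared variation of the 10 genes was not tested. RefSeq promoter windows (GRCm38.p6) were matched by symbol for 8 of the 10 genes, all but Egr1 and Ier2, and the 250 bases before the RefSeq start were searched on both strands. The motif TGACG was present in 5 of these 8 (Fos, Fosb, Junb, Atf3 and Dusp1) and in 17.8% of all 32851 windows of the same length. The 200 bases before each start (153 for Dusp1, whose deposited coordinates start further upstream) are printed on the gene's strand, 5′ to 3′, with TGACG, or its reverse complement, in capitals. They lie at chr12:85473690-85473889 (plus strand) for Fos, chr7:19310046-19310245 (minus) for Fosb, chr8:84978749-84978948 (minus) for Junb, chr1:191183334-191183533 (minus) for Atf3 and chr17:26508520-26508672 (minus) for Dusp1.
Fos: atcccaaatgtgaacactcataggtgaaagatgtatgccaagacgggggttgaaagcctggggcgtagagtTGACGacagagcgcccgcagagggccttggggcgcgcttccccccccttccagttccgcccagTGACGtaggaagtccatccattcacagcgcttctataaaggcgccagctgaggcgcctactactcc
Fosb: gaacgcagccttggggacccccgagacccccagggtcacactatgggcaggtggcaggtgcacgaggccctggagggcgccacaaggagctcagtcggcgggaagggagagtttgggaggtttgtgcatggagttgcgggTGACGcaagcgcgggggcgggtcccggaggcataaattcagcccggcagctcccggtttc
Junb: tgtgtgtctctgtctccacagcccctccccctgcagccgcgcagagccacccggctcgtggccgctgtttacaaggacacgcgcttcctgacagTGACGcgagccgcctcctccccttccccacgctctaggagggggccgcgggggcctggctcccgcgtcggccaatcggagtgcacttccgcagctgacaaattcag
Atf3: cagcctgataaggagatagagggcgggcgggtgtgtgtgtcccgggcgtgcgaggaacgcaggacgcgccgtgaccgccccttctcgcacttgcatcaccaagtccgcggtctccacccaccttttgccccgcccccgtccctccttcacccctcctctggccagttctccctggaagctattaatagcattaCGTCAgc
Dusp1: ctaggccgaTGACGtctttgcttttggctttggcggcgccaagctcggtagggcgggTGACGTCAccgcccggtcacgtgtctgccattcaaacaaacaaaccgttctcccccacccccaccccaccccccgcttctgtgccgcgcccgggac
Fos held the motif at 129 to 125 and at 66 to 62 bases before its start, with a TATAAA at 33 to 28 bases. Dusp1 held TGACG from 191 bases before its start and, from 143 to 136 bases, the full palindrome TGACGTCA, which contains the TGACG matches of both strands at that place and was present in 1.55% of all windows. In Atf3 the motif stood on the opposite strand, 7 to 3 bases before the start. Among the other motifs searched was the serum response element known as the CArG box, as the strict form CCWWWWWWGG with W for A or T. It was found in Zfp36 alone of the 8 (1.47% of all windows). The EGR1 motif GCGNGGGCG was found in Fosb and Zfp36 (4.7%), TATAAA in Fos (12.4%) and the AP-1 motif TGANTCA in 0 of the 8 (6.75%). Bases more than 250 before the start were not searched, nor were Egr1 and Ier2. A motif not found here may therefore lie elsewhere in a gene's regulatory sequence. A match describes these letters only. Fos and Junb, which both held TGACG, were the least alike pair in expression. Of the closest pairs (r = 0.965 each), Fos and Dusp1 both held it, and neither Ier3 nor Zfp36 did.

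In the coordinates of the deposited table, read as GRCm38, Fos lies on chromosome 12 from 85473890 to 85477273 and Jun on chromosome 4 from 95049034 to 95052222. Junb and Ier2 lie on chromosome 8, from 84976909 to 84978748 and from 84661331 to 84662852. Fosb and Zfp36 lie on chromosome 7, from 19302721 to 19310045 and from 28376784 to 28379255. Ier3 and Dusp1 lie on chromosome 17, from 35821684 to 35822923 and from 26505590 to 26508519. Atf3 lies on chromosome 1 from 191170296 to 191183340 and Egr1 on chromosome 18 from 34859823 to 34864984. Fos, Egr1 and Ier3 are on the plus strand and the other genes on the minus strand.

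Levels differed widely among the genes, here as FPKM, which is per length. Means over the 6 libraries were 126 FPKM for Junb, 74.2 for Ier3, 57.8 for Ier2, 46.5 for Dusp1, 35.3 for Zfp36, 31.3 for Jun, 8.65 for Egr1, 8.13 for Fos, 5.27 for Atf3 and 0.929 for Fosb. The order of neighbours held in all 6 libraries except for Ier3 above Ier2, which held in 5, and Egr1 above Fos, which held in 3. Junb, the highest, exceeded the mean level of 98.6% of the genes in the table.

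**Figure D2:**
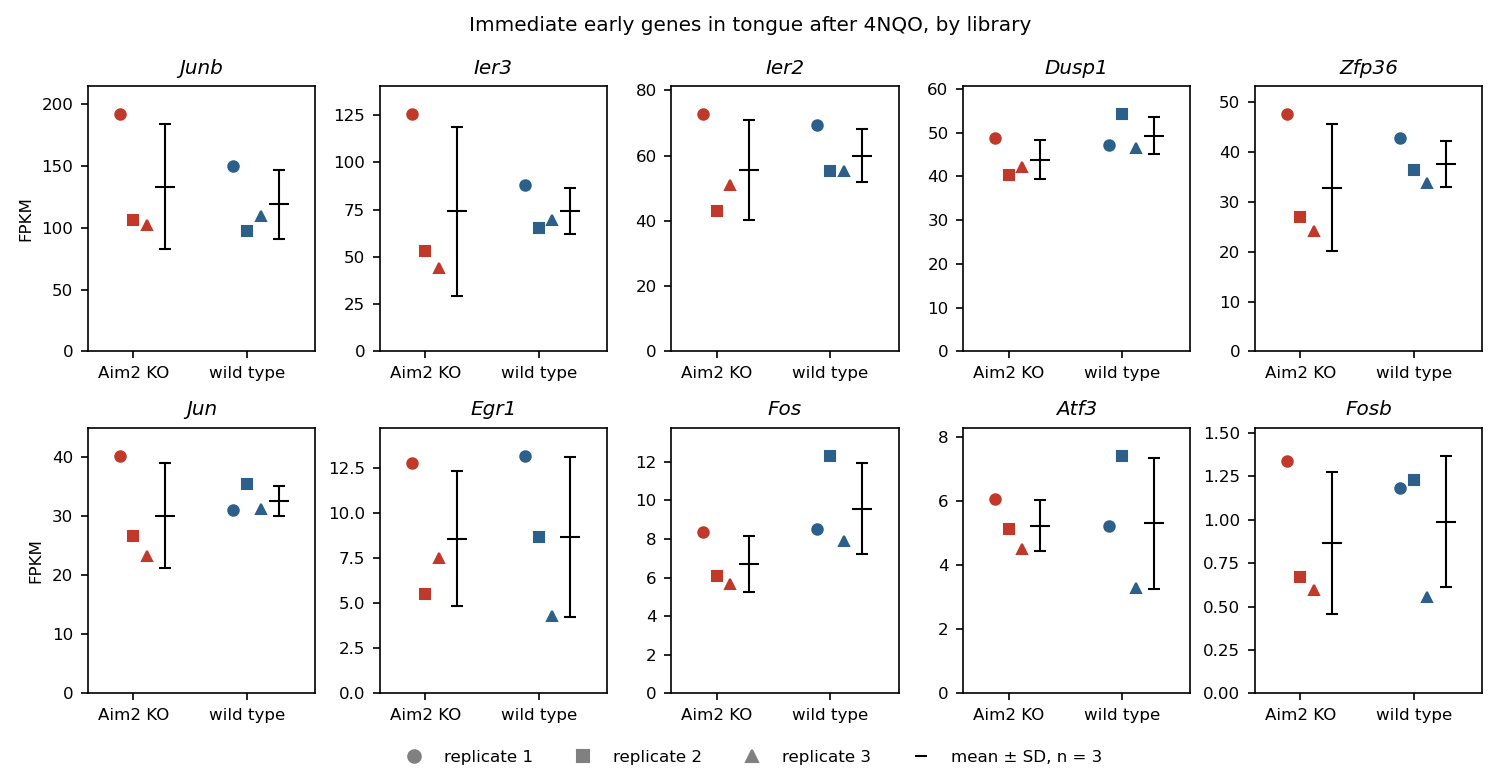
FPKM of each gene (vertical axes start at 0) in the 3 Aim2 KO libraries (red) and the 3 wild type libraries (blue), with symbols for the replicate number and bars for the mean ± SD (n = 3). The genotypes overlap for all 10 genes, and Aim2 KO replicate 1 (circle) is the highest Aim2 KO library for each of them.

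In the comparison of the genotypes, which asks what the lack of Aim2 does to the carcinogen-exposed tongue, 0 of the 9 tested genes passed the threshold of an adjusted p of 0.05 in limma, where 1 gene of 12144 did (Wdfy1; 0.00823%). At an unadjusted p under 0.05 in either direction there was 1 of the 9, Fos, which was lower in Aim2 KO. Of all tested genes 0.576% were lower and 1.93% higher at that level. With limma's voom on the recovered reads 0 of the 9 were at an unadjusted p under 0.05. The groups overlapped for all 10 genes, and failed to overlap for 6.46% of the genes tested. The log2 difference, taken on the scale of log2(FPKM + 1) as Aim2 KO minus wild type, was negative for 7 of the 10 (and for 42.8% of all genes tested) and positive for 3, with a median of -0.14 and a range of -0.45 to 0.13, beside a median of 0.02 over all genes tested. Of the 9 tested genes 6 were negative, and 8 after median-of-ratios scaling, where Egr1 turned to -0.0030 and Atf3 to -9.1e-06.

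Among the FOS genes, Fos, whose protein needs a JUN partner to bind DNA, had 8.33, 6.07 and 5.66 FPKM in Aim2 KO replicates 1 to 3 and 8.53, 12.3 and 7.91 FPKM in wild type replicates 1 to 3. The Aim2 KO values of replicates 2 and 3 were the lowest, while Aim2 KO replicate 1 lay between the wild type libraries. Its means of 6.69 ± 1.44 and 9.57 ± 2.36 FPKM gave a log2 difference of -0.45 (SE 0.19, 95% interval -0.90 to -0.01, unadjusted p = 0.0468, limma adjusted p = 0.9998). Fosb, a FOS relative with similar partners, had 1.34, 0.672 and 0.595 FPKM in the Aim2 KO libraries and 1.18, 1.23 and 0.557 FPKM in the wild type ones. These values rested on 49 to 113 reads a library. The highest was in Aim2 KO replicate 1 and the lowest in wild type replicate 3.

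**Figure D3:**
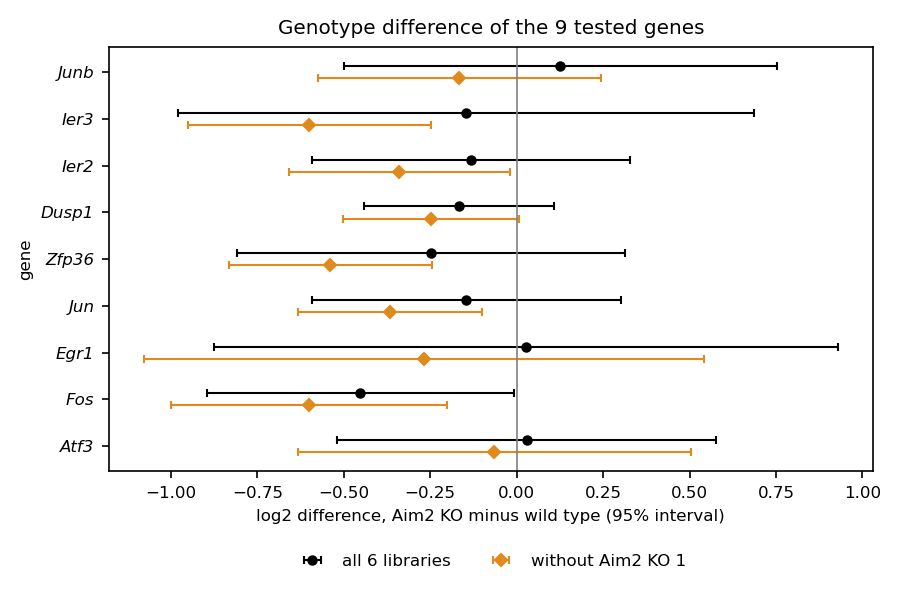
Log2 difference, Aim2 KO minus wild type, for the 9 tested genes with 95% intervals from limma, with all 6 libraries (black) and without Aim2 KO replicate 1 (orange). With all 6 libraries only the interval of Fos lies wholly below 0, and without that library those of Fos, Jun, Ier2, Ier3 and Zfp36 do.

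Of the JUN genes, Jun, the classical AP-1 partner of Fos, had 40.2, 26.8 and 23.3 FPKM in the Aim2 KO libraries and 31.0, 35.6 and 31.2 FPKM in the wild type ones. The Aim2 KO libraries held both the highest value and the lowest, at a mean of 30.1 ± 8.90 FPKM against 32.6 ± 2.57 FPKM (log2 difference -0.15, 95% interval -0.59 to 0.30). Junos, an antisense transcript whose exons overlap those of Jun, had a mean of 1.65 FPKM. Whether the counting used strand is not given in the sources used here, so reads of these overlapping genes may not be told apart. The same holds for Zfp36 and the antisense transcript Gm44710, whose exons overlap. Gm44710 had no listed value. Junb, a JUN protein that is abundant in differentiating epithelium, had 192, 107 and 102 FPKM in the Aim2 KO libraries and 150, 97.4 and 109 FPKM in the wild type ones. Replicate 1 was the highest of its genotype in both groups, and the remaining 4 libraries lay between 97.4 and 109 FPKM. The log2 difference was 0.13 (95% interval -0.50 to 0.75).

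Both families were also described whole, from a split made after these values were seen. Jun and Junb together with Jund summed to 213 ± 70.9 FPKM in the Aim2 KO libraries and 209 ± 31.4 FPKM in the wild type ones (n = 3 per group). Junb made up 62.0 ± 2.78% of the JUN family's FPKM in Aim2 KO and 56.5 ± 4.83% in wild type (exact permutation test, two-sided, p = 0.2). Fos was a minor part of its family, at 16.1 ± 1.41% of the summed FPKM in Aim2 KO and 22.3 ± 5.98% in wild type (exact permutation p = 0.2), and Fosl2 was the main one at 56.4 ± 2.55% and 60.4 ± 5.82% (exact permutation p = 0.4). Fosl1, the FOS relative linked to invasive squamous carcinoma, took 29.1, 21.6 and 26.0% of the FOS family in Aim2 KO and 17.99, 12.6 and 14.4% in wild type. The Aim2 KO shares of Fosl1 all lay above the wild type shares (exact permutation p = 0.1, the smallest possible), while its FPKM overlapped between the genotypes.

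**Figure D4:**
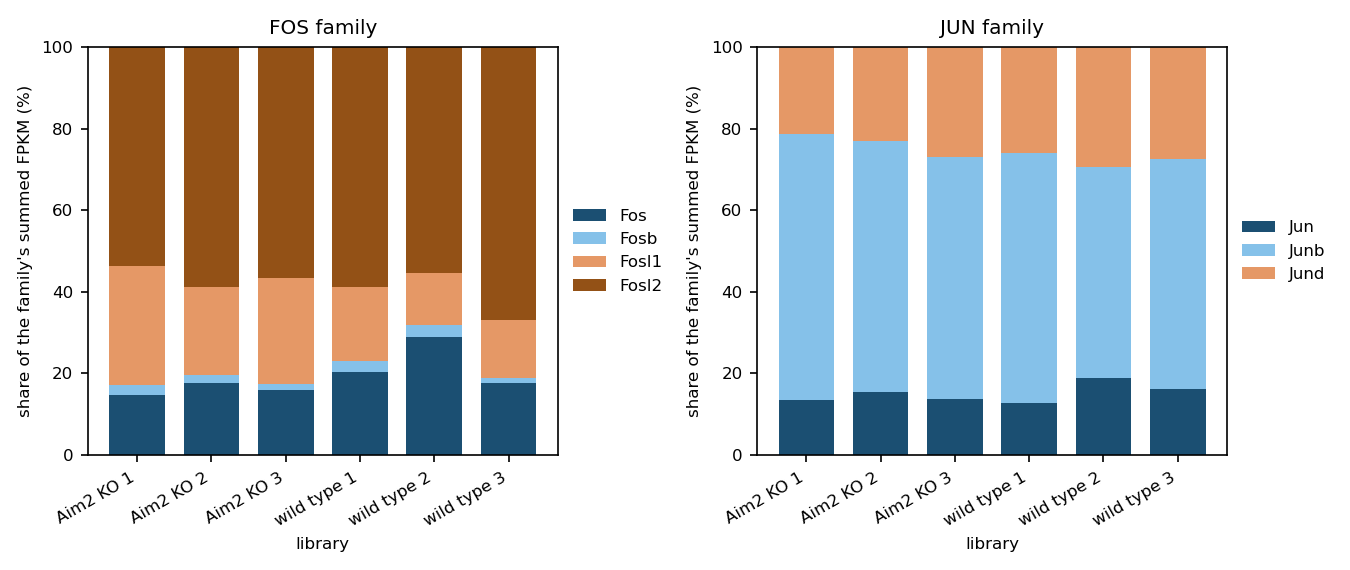
Share (%) of the summed FPKM of the FOS family (left) and the JUN family (right) held by each gene in each library, with bars from 0 to 100%. The Fosl1 segment spans 21.6 to 29.1% in the Aim2 KO libraries and 12.6 to 17.99% in the wild type libraries.

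Atf3, a stress-induced factor of the ATF/CREB family that can pair with JUN proteins, had 6.06, 5.14 and 4.50 FPKM in the Aim2 KO libraries and 5.23, 7.39 and 3.298 FPKM in the wild type ones. The wild type libraries held both ends of the range, and the log2 difference was 0.03 (95% interval -0.52 to 0.58). Egr1, a zinc finger factor induced through SRF, had 12.8, 5.52 and 7.50 FPKM in the Aim2 KO libraries and 13.2, 8.66 and 4.27 FPKM in the wild type ones. Its highest library exceeded its lowest 3.08-fold, the widest ratio of the 10 genes, and its standard deviation over the 6 log2 values was larger than that of 97.5% of the genes tested. In each genotype replicate 1 was the highest, and the log2 difference was 0.03 (95% interval -0.88 to 0.93).

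Ier2, an immediate early nuclear protein, had 72.6, 43.1 and 51.1 FPKM in the Aim2 KO libraries and 69.4, 55.4 and 55.2 FPKM in the wild type ones, a log2 difference of -0.13 (95% interval -0.59 to 0.33). Ier3, which affects cell survival and ERK signalling, had 125, 53.0 and 43.9 FPKM in the Aim2 KO libraries and 88.1, 65.5 and 69.3 FPKM in the wild type ones. Aim2 KO replicate 1 was far above and the other Aim2 KO libraries were below all 3 wild type libraries. The genotype means of Ier3 were nearly equal at 74.1 ± 44.6 and 74.3 ± 12.1 FPKM, and the log2 difference was -0.15 (95% interval -0.98 to 0.69).

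Of the genes that end the response, Dusp1, a phosphatase that inactivates p38 and JNK, had 48.9, 40.3 and 42.1 FPKM in the Aim2 KO libraries and 47.2, 54.1 and 46.5 FPKM in the wild type ones. It varied least of the 10, with a highest library 1.34-fold above the lowest, and its log2 difference was -0.17 (95% interval -0.44 to 0.11). Zfp36, which encodes tristetraprolin, a protein that binds AU-rich elements and speeds the decay of cytokine mRNAs, had 47.5, 27.0 and 24.1 FPKM in the Aim2 KO libraries and 42.7, 36.3 and 33.9 FPKM in the wild type ones. Again 1 Aim2 KO library lay above and the other two below every wild type library, for a log2 difference of -0.25 (95% interval -0.81 to 0.31).

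The genotype means depended on Aim2 KO replicate 1, a library that stood apart in its tissue markers as well. For Fos, Jun, Ier2, Ier3, Dusp1 and Zfp36, 6 of the 10 genes, both remaining Aim2 KO libraries lay below all 3 wild type libraries, as they did for 5.11% of the genes tested. Without Aim2 KO replicate 1, all 9 tested genes had negative log2 differences, and 5 were lower at an unadjusted p under 0.05, where 1.53% of 12209 genes were, but 0 of the 9 passed after adjustment and 14 of the 12209 genes (0.115%) did. The differences were then -0.54 for Zfp36 (95% interval -0.83 to -0.25, limma adjusted p = 0.211), -0.60 for Ier3 (-0.95 to -0.25, adjusted p = 0.278), -0.60 for Fos (-1.0 to -0.20, adjusted p = 0.389), -0.37 for Jun (-0.63 to -0.10, adjusted p = 0.469) and -0.34 for Ier2 (-0.66 to -0.02, adjusted p = 0.68). This comparison rests on 2 Aim2 KO libraries. Since Aim2 KO replicate 1 was the highest Aim2 KO library for each gene, leaving it out could only lower the differences. Without Aim2 KO replicate 2, or without Aim2 KO replicate 3, 4 of the 9 were negative and 0 were at an unadjusted p under 0.05.

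Markers of several of the tongue's cell types differed between the libraries that were high and low in the 10 genes. The mean log2 level of 15 skeletal muscle markers was 7.38 in Aim2 KO replicate 1, which was highest for the immediate early genes, and 8.10 to 8.40 in the other 5 libraries. The summed muscle level was 9820 to 18786 FPKM in Aim2 KO and 16187 to 19284 FPKM in wild type, and 13 of the 15 markers had negative log2 differences. Their median log2 difference was -0.21 with all 6 libraries and 0.10 without Aim2 KO replicate 1. Tnnc2 was at or near 0 in every library. The 10 fibroblast markers had a mean log2 level of 2.34 in Aim2 KO replicate 1 and 2.95 in wild type replicate 1, where the immediate early genes were high, and 3.96 and 3.61 in Aim2 KO replicates 2 and 3, where they were low. The summed fibroblast level was 135 to 338 FPKM in Aim2 KO and 184 to 235 FPKM in wild type, with 7 of 10 markers positive. The median fibroblast difference was 0.01 with all 6 libraries and 0.54 without Aim2 KO replicate 1. The 15 markers of squamous epithelium were highest in Aim2 KO replicate 1 (mean log2 level 10.50) and lowest in Aim2 KO replicate 2 (9.81), although wild type replicate 3, at 10.31, had low immediate early levels. Their sums were 41194 to 59762 FPKM in Aim2 KO and 43343 to 54427 FPKM in wild type, with 6 of 15 positive. Endothelial, smooth muscle, Schwann cell and adipocyte markers were also lowest in Aim2 KO replicate 1, and mitochondrial transcripts took 4.02% of its reads and 5.39 to 5.98% elsewhere. The summed level of 10 neutrophil markers was 6787 FPKM in Aim2 KO replicate 1 and 3498 FPKM in wild type replicate 1, 2304 and 2363 FPKM in wild type replicates 2 and 3, and 1111 and 791 FPKM in Aim2 KO replicates 2 and 3. These sums lay almost wholly in S100a8 and S100a9, which keratinocytes also make, and the other 8 markers had means below 1 FPKM, with 8 of the 10 positive. Leukocyte markers followed the genotype instead, with 14 of 15 positive, Cd79a at or near 0 in every library, and sums of 99.1 to 176 FPKM in Aim2 KO and 77.5 to 90.7 FPKM in wild type. The part of these cell types in the immediate early levels was not tested, and in whole tissue fewer cells of a type and less RNA per cell cannot be told apart.

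**Figure D5:**
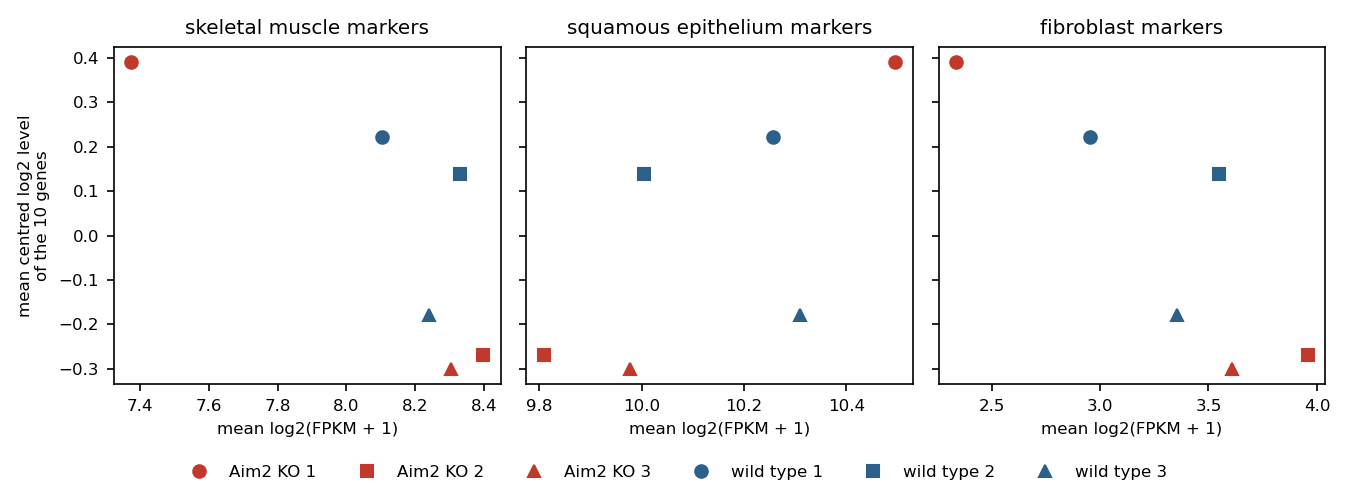
Mean centred log2 level of the 10 immediate early genes (vertical axis) in each library against the mean log2(FPKM + 1) of skeletal muscle, squamous epithelium and fibroblast markers (horizontal axes, not from 0). Aim2 KO replicate 1 (red circle) has the highest immediate early level, 0.39, and the lowest muscle and fibroblast marker levels, 7.38 and 2.34.

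The genes around the immediate early response were described by 10 lists with 164 genes, of which 148 were tested. Signs, medians and ranges below are over all listed genes. Without Aim2 KO replicate 1 the medians were 0.08 for AP-1 relatives, 0.02 for EGR and NR4A factors, -0.08 for other immediate early transcripts, -0.0056 for MAPK phosphatases and Sprouty genes, 0.07 for upstream kinases and factors, 0.09 for ZFP36 relatives and decay partners, 0.10 for transcripts bound by ZFP36, -0.04 for the integrated stress response, -0.0099 for heat shock and 0.11 for the circadian list. Over all genes tested the median without that library was 0.06. With all 6 libraries, 0 of the 148 tested list genes passed the threshold in limma. At an unadjusted p under 0.05, 4 were higher and 1 lower, where 1.93% and 0.576% of all tested genes were, and with voom 0 passed and 2 were at an unadjusted p under 0.05. The groups did not overlap for 5 higher and 4 lower of the 148, beside 605 higher and 180 lower of all 12144 tested genes (6.46%). A lack of overlap named below is to be read beside that share. In the list of AP-1 relatives 9 of 12 genes were tested and 7 of 12 had positive differences (median 0.02). Fosl1 had 16.3, 7.45 and 9.28 FPKM in the Aim2 KO libraries and 7.555, 5.33 and 6.49 FPKM in the wild type ones (log2 difference 0.63, unadjusted p = 0.0415, and 0.33 without Aim2 KO replicate 1). Maff, a small MAF factor, had 11.5 ± 0.722 against 13.6 ± 2.33 FPKM. Jund, the JUN relative that is expressed without induction, had 49.7 ± 12.1 against 57.5 ± 5.64 FPKM. Of 8 EGR and NR4A factors 6 were tested and 6 of the 8 were positive (median 0.16). The EGR1 corepressor gene Nab2 had the smallest p of that list, at 5.003 ± 0.366 against 4.30 ± 0.0781 FPKM, whose groups did not overlap.

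In the list of 30 other immediate early transcripts 29 were tested and 14 were positive (median -0.04). Its mean log2 level was 4.34 in Aim2 KO replicate 1, 4.29 in wild type replicate 1 and 4.14 to 4.24 in the other libraries. Plk3, a stress-responsive polo-like kinase, had 13.6, 15.0 and 11.5 FPKM in the Aim2 KO libraries and 18.4, 15.1 and 16.4 FPKM in the wild type ones (log2 difference -0.30, unadjusted p = 0.0491), with the groups barely apart. Tnfaip3, an inhibitor of NF-kappaB signalling, had 6.77 FPKM in Aim2 KO replicate 1 and 0.758 to 2.28 FPKM in the other 5 libraries, and its log2 difference of 0.81 was 0.29 without that library.

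Of the MAPK phosphatases and Sprouty genes 12 of 15 were tested, with 8 positive, a median of 0.09 and a range of -0.55 to 0.44. Dusp10, a phosphatase of p38 and JNK, had 2.05, 6.13 and 4.14 FPKM in the Aim2 KO libraries and 4.17, 7.41 and 7.13 FPKM in the wild type ones, a log2 difference of -0.55 that was -0.22 without Aim2 KO replicate 1. Dusp8 had 5.78 ± 0.317 against 6.65 ± 0.531 FPKM without overlap. Of the 30 upstream kinases and factors 29 were tested and 20 were positive (median 0.03, range -0.30 to 0.18), and the SRF coactivator gene Mkl2 had 4.19 ± 0.189 against 3.58 ± 0.360 FPKM. In the list of ZFP36 relatives and mRNA decay partners 12 of 13 were tested and 10 were positive (median 0.09), and the deadenylase gene Cnot6 had 25.1 ± 2.11 against 21.9 ± 2.66 FPKM. Their mean log2 level was 3.38 in Aim2 KO replicate 1, where Zfp36 was highest, and 3.43 in Aim2 KO replicate 3, where it was lowest.

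Transcripts known to be bound by ZFP36 were examined beside Zfp36 itself. Of 13 such transcripts 9 were tested, 9 had positive differences and 3 negative ones, with Csf2 listed at 0 in every library. The median was 0.21, beside 0.02 over all genes tested. Without Aim2 KO replicate 1 these medians were 0.10 and 0.06. The mean log2 level of these transcripts was 2.35 in Aim2 KO replicate 1, where Zfp36 was highest, and lower in every other library. It was 1.37 and 1.57 in Aim2 KO replicates 2 and 3, where Zfp36 was lowest. Whether Zfp36 has a part in these levels was not tested. Several of these transcripts are made by leukocytes. Of the leukocyte markers 14 of 15 also had positive differences, with a median of 0.68, and 9 of the 13 tested were higher at an unadjusted p under 0.05 (0 after adjustment). Their part in the levels of these transcripts was not tested. Plaur, the urokinase receptor, had 4.64, 4.01 and 3.88 FPKM in the Aim2 KO libraries and 3.24, 2.72 and 1.98 FPKM in the wild type ones, without overlap (log2 difference 0.52, unadjusted p = 0.011). The monocyte chemokine Ccl2, with 16.3, 2.67 and 5.19 FPKM against 2.64, 1.92 and 1.33 FPKM, also did not overlap (log2 difference 1.33, unadjusted p = 0.0313, and 0.71 without Aim2 KO replicate 1), its nearest values being 2.67 FPKM in Aim2 KO replicate 2 and 2.64 FPKM in wild type replicate 1. Ptgs2, which encodes cyclooxygenase-2, had 12.5, 13.3 and 4.33 FPKM against 5.49, 3.36 and 4.38 FPKM (log2 difference 0.92, unadjusted p = 0.0382, and 0.22 with array quality weights, limma's down-weighting of libraries that deviate more, unadjusted p = 0.515). All 3 had an adjusted p of 0.9998 in limma.

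In the remaining 3 lists, of responses that can accompany immediate early induction, 0 genes passed. The integrated stress response list had 11 of 11 genes tested, 5 positive and a median of -0.01, with Atf5 at 50.3 ± 2.87 against 59.7 ± 8.34 FPKM. All 15 heat shock genes were tested, 11 were positive and the median was 0.06. Their mean log2 level was 6.81 in both Aim2 KO replicate 1, where the immediate early genes were highest, and Aim2 KO replicate 3, where they were lowest. Hsp90ab1, a constitutive HSP90 gene, had 760 ± 85.2 against 701 ± 34.9 FPKM. Hspa1b, an inducible HSP70 gene with the near-identical copy Hspa1a, from which its reads may not be told apart, had 123, 52.2 and 126 FPKM in the Aim2 KO libraries and 77.5, 76.2 and 89.2 FPKM in the wild type ones. The circadian list had 16 of 17 genes tested, 9 positive and a median of 0.00. Nfil3, a repressor in the clock's output, had 6.66, 3.81 and 10.02 FPKM in the Aim2 KO libraries and 8.795, 9.27 and 9.51 FPKM in the wild type ones (log2 difference -0.46, and -0.074 with array quality weights), with the Aim2 KO values on both sides of the wild type ones. Per1, a clock gene that is itself inducible, had 8.995, 14.8 and 9.29 FPKM against 11.8, 16.7 and 11.6 FPKM.

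Outside the lists, the expression profile most like the mean of the 9 tested genes was sought among 7737 genes whose mean reached 5 FPKM. Ribosomal protein genes Rplp2 (r = 0.995), Rps13 (r = 0.99), Rps28 (r = 0.978) and Rps9 (r = 0.974) were among the first 8, with Ppp1r15a (r = 0.992), Cdk9 (r = 0.991), Psmb5 (r = 0.985) and Pfdn4 (r = 0.972). Rplp2 had 744, 455 and 465 FPKM in the Aim2 KO libraries and 653, 609 and 482 FPKM in the wild type ones. Ppp1r15a, which encodes the stress-induced phosphatase subunit GADD34 and is also in the list of other immediate early transcripts, had 11.5, 8.82 and 8.53 against 10.3, 10.2 and 9.05 FPKM. With only 6 libraries, 132 of the 7737 genes had an r above 0.9.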

How the data were processed

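The submitters' notes used here say that RNA came from tongue and that a company made the libraries. The authors deposited FPKM values, 1 column per library. No aligner, counter, build or annotation is given in the sources used here. Coordinates of the genes are those of the deposited table. They were identical in GENCODE M21 (GRCm38) for 5 of the 10 genes.

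Multiplied by gene length, the FPKM values of a library were whole multiples of a common step (100% of values above 0, tolerance 0.01 read), giving 21959204 to 25369400 reads a library. No 2 libraries of a genotype agreed within sampling noise (chi-square per degree of freedom 26.4 or more). On log2(FPKM + 1), limma 3.58.1 in R 4.3.3 was run with its trend option over the 12144 genes whose mean reached 1 FPKM, two-sided, with Benjamini-Hochberg adjustment over all genes tested and a threshold of 0.05. It was tested on simulated data. Intervals are limma's 95% intervals, unadjusted.

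The 10 genes and all lists were chosen with earlier results of these data known, so no list was tested. Named were the 10 genes, Aim2, from each list the gene of smallest p and some of the next 3, and the 8 most alike profiles. Wdfy1, Junos, Gm44710, Fosl1 and Fosl2 as shares, Csf2, Hspa1a, S100a8, S100a9, Tnnc2 and Cd79a were named outside this rule or after their values were seen. Alternatives were other pseudocounts, filters, scalings and models, a muscle covariate, a replicate block and leaving out each library. Sequences are from RefSeq (GRCm38.p6).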

Additional observations from a re-analysis of the deposited data

How the results depend on the processing

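Of the 9 tested immediate early genes 0 passed in any of the 16 alternatives run, and the smallest adjusted p was 0.14, for Fos with array quality weights. The count over all genes was 1 with all libraries, 0 without a filter, with a filter at 0.1 FPKM, after rescaling to TPM and with the replicate block, 13 with the skeletal muscle covariate, 68 with array quality weights and 0 to 14 when a library was left out (14 without Aim2 KO replicate 1). Of the listed pathway genes 0 passed in any of these alternatives.

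The median log2 difference of the 10 genes, -0.14, ran from -0.30 without Aim2 KO replicate 1 to 0.01 without Aim2 KO replicate 3, and from -0.27 to -0.14 otherwise. It was -0.27 with array quality weights and -0.27 with the muscle covariate, over 9 genes. All 9 were negative in both settings. With array quality weights, 5 of the 9 were lower at an unadjusted limma p under 0.05, where 3.38% of all genes were. That setting gave its lowest weight, 0.24, to Aim2 KO replicate 1. With the covariate 4 of the 9 were lower at that level, where 1.71% of all genes were. The covariate was 7.38 in Aim2 KO replicate 1 and 8.10 to 8.40 in the other libraries. It therefore also sets that library apart, and is not independent of the weights or of leaving that library out. Directions turned for Junb with array quality weights (-0.21) and the muscle covariate (-0.065), for Egr1 with median-of-ratios scaling (-0.0030), array quality weights (-0.24) and the covariate (-0.17), and for Atf3 in the same 3 settings (-9.1e-06, -0.13 and -0.013). With 1 library left out, ranges were -0.17 to 0.31 for Junb, -0.36 to 0.36 for Egr1, -0.22 to 0.26 for Atf3, -0.37 to 0.012 for Jun, -0.34 to 0.030 for Ier2, -0.60 to 0.15 for Ier3, -0.012 to 0.61 for Hspa1b and -0.17 to 0.029 for Ppp1r15a. Fos, Dusp1 and Zfp36 were lower in Aim2 KO in every setting. The Aim2 difference ran from -0.30 to -0.19 FPKM. Whether replicate numbers pair the libraries cannot be settled from these values. Deviations of same-numbered libraries correlated at 0.351, 0.458 and 0.03 for replicates 1 to 3. Aim2 KO replicates 1 and 2 were each closest to the wild type library of the same number. Aim2 KO replicate 3 was closer to wild type replicate 2 (0.213). With the replicate block 0 of the 9 genes passed. Depth limits Fosb and Aim2, with few reads a library.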
